A study of Mus musculus with 8 samples.

Results

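The 47 genes described here build, cross-link, move and regulate the actin cytoskeleton. They were chosen by gene symbol from a table of 52997 rows of read counts, and a symbol below 20 counts summed over the 8 libraries was to be left out. All 47 were in the table and 0 were left out, with sums from 1092 for Dstn to 533560 for Actb. All 47 were also among the 11490 genes with enough counts for testing. RNA was sequenced from liver CD4+ T cells of C57BL/6 mice that lack Aire, the thymic regulator of self-antigen display, and that carry a GFP reporter of Foxp3. Cells were live (DAPI-), CD45+, TCRb+ and CD4+ and lacked the Foxp3 signal. They were sorted into a PD-1- and a PD-1+ population by the inhibitory receptor PD-1, the product of Pdcd1. The design has 4 groups of 2 libraries each, PD-1- and PD-1+ at 5 days of age and PD-1- and PD-1+ at 10 days of age. All 4 groups share the Aire deletion and the reporter, no mice with Aire were included, and each library was made from 1000 sorted cells. Whether libraries stem from different animals, or from pooled ones, is not stated in the labels. A p-value here therefore reflects the spread among the libraries alone, and that spread may be technical in part.

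Actin exists as a monomer and as a filament that grows at its barbed end and is dismantled at its pointed end. Profilin, thymosins and cyclase-associated protein handle monomers, the Arp2/3 complex starts branches when WASP activates it below Cdc42, cofilin and its partners cut old filaments, and capping proteins stop growth. Cross-linkers and myosins turn filaments into stiff or contractile networks, and ezrin and moesin tie them to the membrane. In T cells this machinery drives crawling and the contact with antigen-presenting cells. The list also holds Vim, which encodes an intermediate filament protein, and Plek, which encodes a phosphoinositide-binding substrate of protein kinase C.

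Library totals ran from 1473216 to 3019551 counts, with the smallest in a 10-day PD-1- library. Levels are given as CPM, the standard library-scaled count, with the library size taken over the tested genes and multiplied by its TMM factor. Each set of 4 values for a population is in the order 5-day libraries 2 and 3, then 10-day libraries 1 and 2. Pdcd1 was at 0.568 to 1.95 CPM in PD-1- and 269 to 696 CPM in PD-1+ libraries, Foxp3 had 10 to 32 counts in PD-1- and 0 to 2 counts in PD-1+ libraries, and the 9 CD4 T cell markers summed to 5860 to 6780 CPM in PD-1- and 5750 to 9370 CPM in PD-1+ libraries. Both 5-day libraries numbered 3 were male by Y-linked counts (672 and 601) and the other 6 were female, so sex is partly mixed with age. Of markers of other cells, the sum over 8 hepatocyte genes was 10.8 to 20.4 CPM in PD-1- and 28.6 to 79.3 CPM in PD-1+ libraries, and that over 8 erythroid genes 11.1 to 29.8 and 2.81 to 5.34 CPM. Of 4 hepatocyte markers tested, 3 were called higher over both ages and 0 lower, and the 1 erythroid marker tested was called lower. The 2 CD8 T cell markers summed to 27.5 to 47.6 CPM in PD-1- and 6.18 to 27.4 CPM in PD-1+ libraries. Both were tested, with 0 called higher and 1 lower. The 8 dendritic cell markers summed to 10.7 to 35.6 CPM in PD-1- and 37.7 to 91.2 CPM in PD-1+ libraries, without overlap and highest in the 10-day PD-1+ pair (75.6 to 91.2 CPM). Of 5 dendritic cell markers tested, 1 was called higher over both ages and 0 lower. The 6 markers of NK cells and innate lymphoid cells summed to 12.3 to 46.0 CPM in PD-1- and 83.1 to 120 CPM in PD-1+ libraries at 5 days and overlapped at 10 days (26.7 to 88.7 and 21.0 to 56.6 CPM). Of these, 4 were tested, and over both ages 0 were called higher and 2 lower in PD-1+ cells. B cell markers summed to 546 to 641 CPM in PD-1- and 292 to 356 CPM in PD-1+ libraries, and endothelial markers, with Clec4g at 0 in all 8, to 295 to 378 and 93.7 to 145 CPM. Of 6 B cell markers tested, 0 were called higher over both ages and 1 lower. Only 1 of the 6 endothelial markers had enough counts for testing, and it was called lower. The 10 proliferation markers summed to 1780 to 2730 CPM in 5-day PD-1-, 1330 to 1780 in 10-day PD-1-, 5390 to 5480 in 5-day PD-1+ and 3150 to 3250 in 10-day PD-1+ libraries, and 9 of the 10 were called higher in PD-1+ cells. The proliferation sums are high and low in the same groups as many actin genes below. The part of any of these markers in the differences below was not tested. In bulk libraries of this kind, fewer cells with a transcript and less of it per cell cannot be told apart.

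Most of the actin genes were higher in the PD-1+ population. Over both ages, with age as a term in edgeR's quasi-likelihood test and Benjamini-Hochberg adjustment over all 11490 genes, 33 of the 47 were called higher at an adjusted p below 0.05, 4 were called lower (Actn1, Rhoh, Gsn and Msn) and 10 were not called. Among all tested genes, 21.9% were called higher and 19.6% lower, or 41.4% in either direction. The members' shares were 70.2% and 8.51%, and their median log2 fold change was 0.76, against -0.01 over all tested genes. In 31 members all 4 PD-1+ libraries lay above all 4 PD-1- libraries, in 2 (Actn1 and Rhoh) all lay below, and in 14 the populations overlapped. The same order was seen in 17.2% of all tested genes upward and in 17.5% downward. Of the called members, 16 were at least 2-fold higher and 1, Actn1, was at least 2-fold lower. The share of all tested genes at this 2-fold cut was not taken for comparison. The estimates ranged from -3.54 for Actn1 to 6.37 for Plek. Without both male libraries, 28 members were called higher over both ages and 2 lower. Actr2, Arhgdib, Capza1, Coro1a and Coro1b lost the higher call, and Gsn and Msn lost the lower call. The call of Msn was lost under 15 of 18 alternatives in all.

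**Figure D1:**
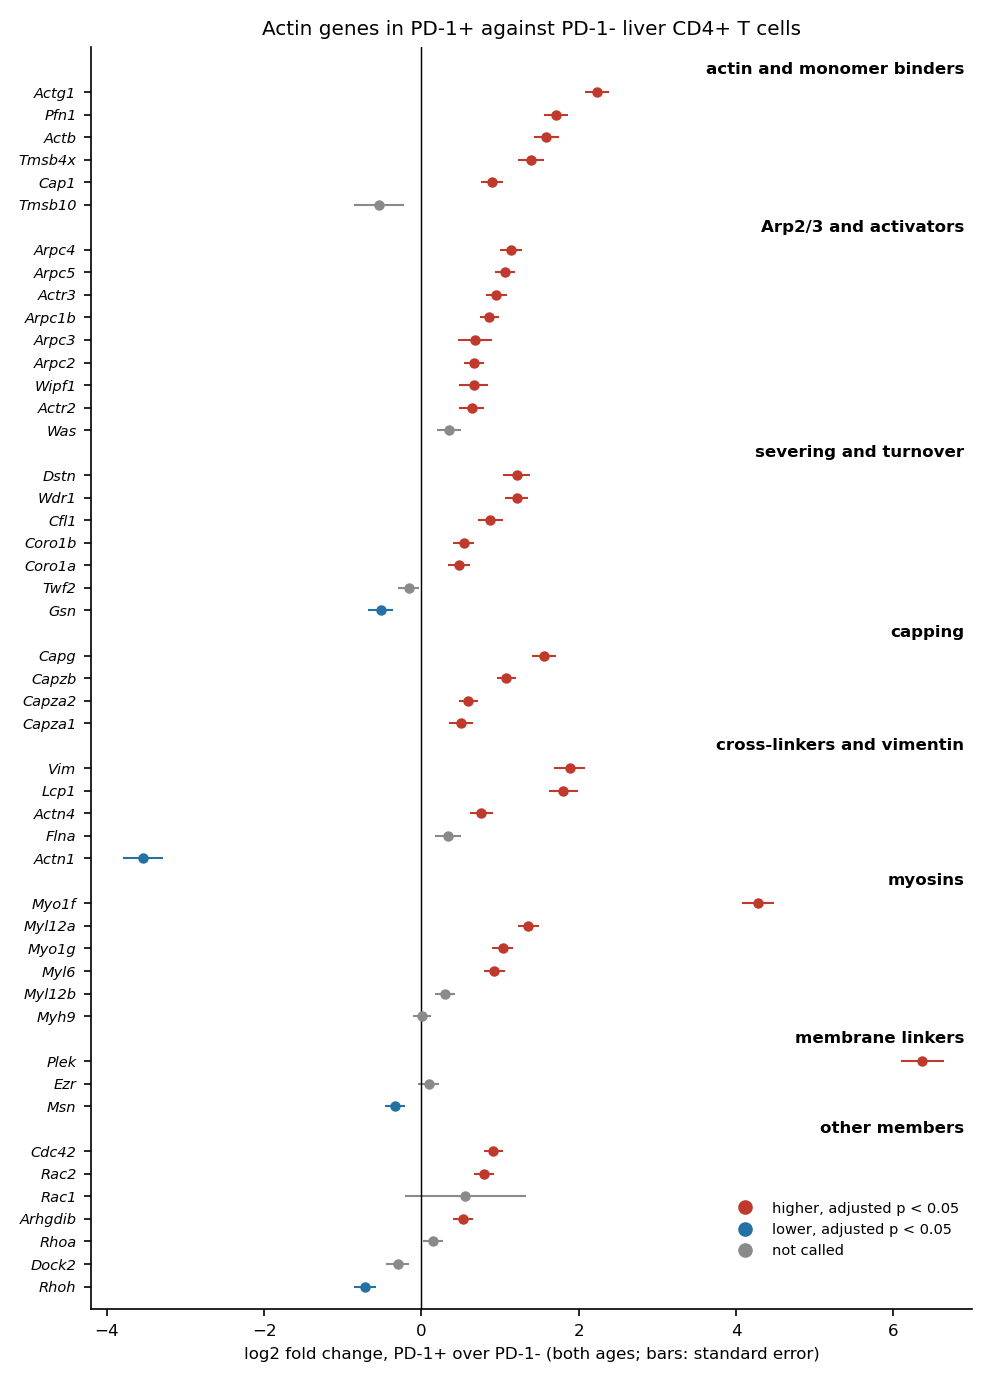
Log2 fold change of each of the 47 genes in PD-1+ over PD-1- cells, over both ages (x axis; point, edgeR estimate; bar, standard error), grouped by role. Most points lie right of 0, Plek and Myo1f lie farthest right, and Actn1 lies alone at -3.54.

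Actin itself and 3 of the 4 proteins that handle its monomers were higher in PD-1+ cells, and these 6 genes had a median of 1.49 on the log2 scale. Actb encodes beta-actin, the main cytoplasmic actin (chr5:142903115-142906754, - strand, on GRCm38). Its level was 15164, 15199.5, 11401 and 13819 CPM in PD-1- libraries and 60828, 56291, 29410.4 and 29823 CPM in PD-1+ libraries. All PD-1+ libraries were above all PD-1- libraries, and the 5-day PD-1+ pair was the highest. The log2 fold change was 1.59 ± 0.16 (adjusted p = 1.88e-06), a fold of 3.01. As a share of all counts, Actb took 1.24 to 1.57% in PD-1- and 2.90 to 5.33% in PD-1+ libraries. The means of 4.07% ± 1.27 and 1.45% ± 0.149 (SD, n = 4 each) differed by 2.62 percentage points, with a two-sided exact permutation p of 0.0286, the smallest that 4 libraries against 4 can give. Leaving out any 1 PD-1- library gave an exact permutation p of 0.0571, and leaving out any 1 PD-1+ library gave 0.0286. All 47 genes together took 4.08 to 4.49% of PD-1- and 6.99 to 10.9% of PD-1+ counts, and without Actb 2.71 to 2.93% and 3.95 to 5.59%.

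Actg1 encodes gamma-actin, the other cytoplasmic actin (chr11:120345690-120348542, - strand). It was at 459, 423, 325 and 339 CPM in PD-1- and 2637, 2717, 1212 and 1199 CPM in PD-1+ libraries, 2.23 ± 0.16 on the log2 scale (adjusted p = 5.43e-08). The populations were far apart at each age, and the 5-day PD-1+ pair was again the highest. Pfn1, which encodes profilin and delivers monomers to growing barbed ends, was at 1043, 1127, 674 and 829 CPM in PD-1- and 4517, 4289, 2122 and 1810.1 CPM in PD-1+ libraries (1.71 ± 0.15, adjusted p = 6.98e-07). The order of the groups was that of Actb and Actg1. Cap1, the cyclase-associated protein that recycles monomers, differed less (0.90 ± 0.14), with 118 to 139 CPM in PD-1- and 199 to 267 CPM in PD-1+ libraries.

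The beta-thymosins, small peptides that hold actin monomers in reserve, did not move alike. Tmsb4x, the X-linked gene of thymosin beta 4 (chrX:167207093-167209315, - strand), was at 2841, 2979, 1818 and 2317 CPM in PD-1- and 10543, 9183, 4436 and 3965 CPM in PD-1+ libraries, 1.39 ± 0.16 on the log2 scale (adjusted p = 9.93e-06). Its relative Tmsb10 (chr6:72957347-72958748, - strand) was at 326, 392, 184 and 246 CPM in PD-1- and 396, 432, 70.9 and 101 CPM in PD-1+ libraries. The 5-day populations lay close together, while both 10-day PD-1+ libraries were below every other library. Over both ages Tmsb10 was not called (-0.54 ± 0.32, adjusted p = 0.212). The ratio of Tmsb4x to Tmsb10 counts was 7.59 to 9.88 in PD-1- and 21.3 to 62.6 in PD-1+ libraries.

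**Figure D2:**
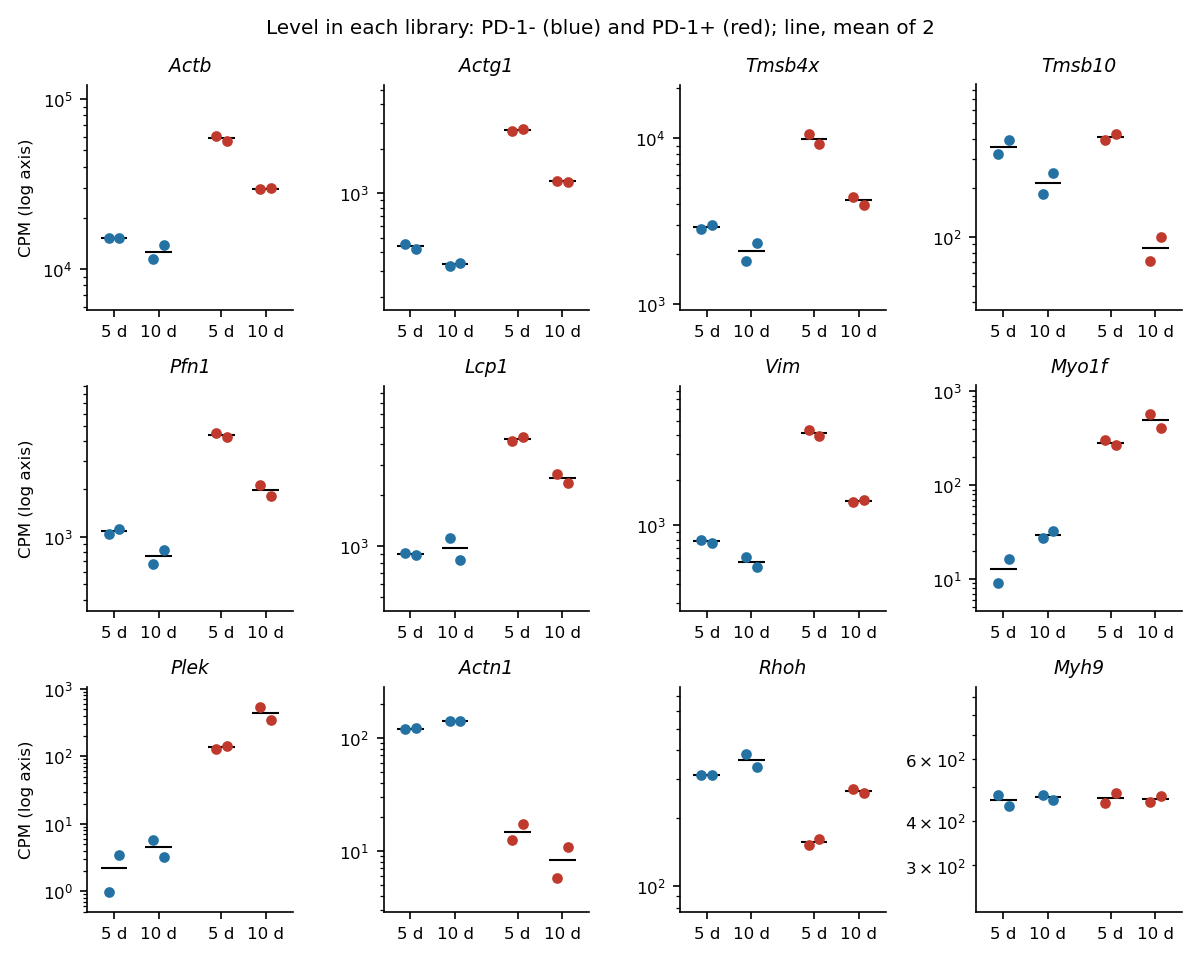
CPM of 12 of the genes in each library (y axes, log scale), PD-1- in blue and PD-1+ in red, at 5 and 10 days, with a line at the mean of each pair. Actb, Actg1, Pfn1, Tmsb4x, Lcp1 and Vim are highest in the 5-day PD-1+ pair, Plek and Myo1f in the 10-day PD-1+ pair, and Actn1 and Rhoh are lower in every PD-1+ library.

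Many genes of the actin cytoskeleton are known targets of the serum response factor, which binds a short element called the CArG box, so the start regions of the members were searched for it. Promoter windows of 300 bases, from 250 before to 50 after the start (RefSeq, GRCm38.p6), were held for 42 of the 47 genes, with 54 windows, and not for Actb, Twf2, Coro1b, Rac1 and Rac2. A CArG box, which reads as the same element on both strands, was found in 3 of the 54 windows (5.56%) and in 535 of all 32851 windows (1.63%). The 3 windows belong to Actg1 at chr11:120348446-120348745 (- strand), Myl6 at chr10:128492960-128493259 (- strand) and Arpc4 at chr6:113377863-113378162 (+ strand). They are shown 5′ to 3′ with the CArG box in capitals, because these 3 genes share it. All 3 were called higher in PD-1+ cells, but so were 33 of the 47 members (70.2%), so these calls do not set them apart.
Actg1: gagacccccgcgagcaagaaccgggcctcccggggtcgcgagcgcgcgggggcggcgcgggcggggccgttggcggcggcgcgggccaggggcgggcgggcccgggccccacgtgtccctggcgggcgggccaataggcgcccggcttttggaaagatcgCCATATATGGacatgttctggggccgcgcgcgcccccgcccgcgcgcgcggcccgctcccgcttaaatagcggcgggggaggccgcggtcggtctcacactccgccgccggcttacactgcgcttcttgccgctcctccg
Myl6: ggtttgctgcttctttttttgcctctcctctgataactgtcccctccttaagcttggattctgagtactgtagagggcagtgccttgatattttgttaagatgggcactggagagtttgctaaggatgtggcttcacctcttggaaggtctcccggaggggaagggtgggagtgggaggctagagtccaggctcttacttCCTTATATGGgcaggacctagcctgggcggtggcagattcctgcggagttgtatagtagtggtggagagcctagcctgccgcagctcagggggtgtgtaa
Arpc4: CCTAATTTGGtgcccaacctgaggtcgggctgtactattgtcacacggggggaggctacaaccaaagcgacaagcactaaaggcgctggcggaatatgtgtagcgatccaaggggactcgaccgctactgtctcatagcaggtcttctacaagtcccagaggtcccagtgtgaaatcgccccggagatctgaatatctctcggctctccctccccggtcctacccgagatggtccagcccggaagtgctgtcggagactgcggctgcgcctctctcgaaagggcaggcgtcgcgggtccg
The element starts at -90 relative to the start in Actg1, at -50 in Myl6 and at -250 in Arpc4. It reads CCATATATGG, CCTTATATGG and CCTAATTTGG in that order. A match describes the letters of the window and is not evidence of binding. Srf, the gene of the factor itself, was at 4.54, 13.1, 7.45 and 3.25 CPM in PD-1- and 19.0, 15.3, 12.1 and 17.2 CPM in PD-1+ libraries (1.19 ± 0.39, adjusted p = 0.0222). Mkl1, which encodes its actin-sensing coactivator, was lower, with 169 to 189 CPM in PD-1- and 61.2 to 97.7 CPM in PD-1+ libraries (-1.17 ± 0.14, adjusted p = 1.06e-05).

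The branch-forming machinery was higher in PD-1+ cells as a group but by smaller amounts. Of 9 genes for the Arp2/3 complex and its activators, 8 were called higher and 0 lower, with estimates from 0.35 to 1.14 and a median of 0.68. The largest difference was that of the subunit gene Arpc4 (chr6:113378115-113390448, + strand), at 289.7, 227, 261 and 278 CPM in PD-1- and 625, 684, 561 and 479 CPM in PD-1+ libraries (1.14 ± 0.14, adjusted p = 1.38e-05). The populations did not overlap, and PD-1+ libraries of both ages were close to each other. Arpc5, another subunit, was 1.06 ± 0.13, and Actr3, the actin-related subunit Arp3, was 0.95 ± 0.13, with 838 to 970.2 CPM in PD-1- and 1406 to 1984 CPM in PD-1+ libraries. Arpc1b, Arpc2 and Actr2, the gene of Arp2, were 0.86 ± 0.12, 0.66 ± 0.13 and 0.64 ± 0.16. Arpc3 was uneven, at 52.8, 124, 44.0 and 55.3 CPM in PD-1- and 126, 139, 84.4 and 82.9 CPM in PD-1+ libraries, and 1 PD-1- library overlapped the PD-1+ range. Its call over both ages (0.68 ± 0.22, adjusted p = 0.0228) was lost under 5 of 18 alternatives. Was, which encodes the Wiskott-Aldrich protein that activates Arp2/3, was not called (0.35 ± 0.15, adjusted p = 0.0852), with 73.8 to 98.2 CPM in PD-1- and 91.2 to 119 CPM in PD-1+ libraries. Wipf1, its partner that protects it from degradation, was called higher (0.66 ± 0.18), with 51.4 to 74.5 CPM in PD-1- and 80.2 to 135 CPM in PD-1+ libraries.

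Among 7 genes that cut, cap or recycle old filaments, 5 were higher and Gsn was lower. Cfl1, the gene of cofilin, was at 679.8, 664, 567 and 568 CPM in PD-1- and 1660.3, 1593, 834 and 736 CPM in PD-1+ libraries (0.87 ± 0.16, adjusted p = 0.000481). All PD-1+ libraries were above all PD-1- libraries, but the 10-day PD-1+ pair only narrowly. Its relative Dstn, the gene of destrin, was 1.21 ± 0.17, and Wdr1, a cofactor of cofilin, was 1.21 ± 0.15, with 565 to 726 CPM in PD-1- and 1181 to 1898 CPM in PD-1+ libraries. Coro1a, the main coronin of lymphocytes and a regulator of Arp2/3 and cofilin, was at 3811, 3780.0, 3449 and 3626 CPM in PD-1- and 6404, 6403, 4159 and 3953 CPM in PD-1+ libraries (0.48 ± 0.14, adjusted p = 0.0119). The 5-day PD-1+ pair stood clear, and the 10-day PD-1+ pair lay just above the PD-1- libraries. Coro1b was 0.54 ± 0.13. Gsn, the gene of the calcium-dependent severing protein gelsolin, was at 83.0, 92.0, 127 and 119.7 CPM in PD-1- and 66.9, 45.4, 97.6 and 89.6 CPM in PD-1+ libraries. The populations overlapped across ages but not within an age, and the difference was -0.52 ± 0.16 (adjusted p = 0.017). Twf2, a twinfilin, was not called (-0.16 ± 0.14, adjusted p = 0.367).

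All 4 capping genes were called higher, with a median of 0.84. Capg, a gelsolin relative that caps barbed ends, led them, with 89.8, 88.0, 76.1 and 55.9 CPM in PD-1- and 319, 275, 156 and 189 CPM in PD-1+ libraries (1.56 ± 0.15, adjusted p = 1.36e-06). Within the gelsolin family, Capg was higher and Gsn was lower in the same cells. The beta subunit gene of capping protein, Capzb, was 1.08 ± 0.12, with 469.6 to 509 CPM in PD-1- and 906 to 1145 CPM in PD-1+ libraries. The alpha subunit genes Capza1 and Capza2 were 0.50 ± 0.15 and 0.60 ± 0.12. For Capza1, 72.3% of the 25-base windows of its transcripts also occur in transcripts of other genes, chiefly Gm3608, so its counts are uncertain, and its call was lost under 4 of 18 alternatives.

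The cross-linkers held the only large difference downward. Lcp1, the gene of the leukocyte bundling protein L-plastin (chr14:75131101-75230842, + strand), was at 917, 889, 1124 and 828 CPM in PD-1- and 4159.6, 4409, 2662 and 2358 CPM in PD-1+ libraries (1.80 ± 0.18, adjusted p = 2.85e-06). Vim (chr2:13573927-13582826, + strand) was at 799.7, 758, 607 and 526 CPM in PD-1- and 4334, 3964, 1419.6 and 1480.5 CPM in PD-1+ libraries (1.89 ± 0.19, adjusted p = 5.27e-06). Both had all PD-1+ libraries above all PD-1- libraries, with the 5-day pair on top. The 11 stromal and smooth muscle markers, whose cells are also rich in vimentin, summed to 4.21 to 10.4 CPM in PD-1- and 2.39 to 17.5 CPM in PD-1+ libraries, with overlap. The part of such cells in the difference of Vim was not tested.

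The alpha-actinins, which bundle filaments and tie them to adhesions, went opposite ways. Actn1 (chr12:80167547-80260371, - strand) was at 119.6, 122, 142 and 142 CPM in PD-1- and 12.4, 17.2, 5.70 and 10.9 CPM in PD-1+ libraries, -3.54 ± 0.25 on the log2 scale (adjusted p = 7.81e-08), or a fold of 0.0859. PD-1- libraries were near each other at both ages, and every PD-1+ library was far below. Actn4 was at 252, 256, 341 and 298 CPM in PD-1- and 541, 516, 475 and 409 CPM in PD-1+ libraries (0.76 ± 0.14, adjusted p = 0.000665). Flna, the X-linked gene of the cross-linker filamin A, was not called over both ages (0.34 ± 0.17, adjusted p = 0.123), with 636, 593, 691 and 630.3 CPM in PD-1- and 963, 1145, 619 and 609 CPM in PD-1+ libraries, where only the 5-day PD-1+ pair stood above the rest.

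Of 6 myosin genes, 4 were higher and 2 were not called. Myo1f, a long-tailed class I myosin of leukocytes that links membrane and actin (chr17:33555707-33607764, + strand), was at 9.07, 16.5, 27.2 and 32.5 CPM in PD-1- and 306, 265, 578 and 410.1 CPM in PD-1+ libraries. Every PD-1+ library was many times above every PD-1- library (4.27 ± 0.20, adjusted p = 1.5e-09), a fold of 19.3. Myo1g, a short-tailed relative of hematopoietic cells, differed by 1.03 ± 0.14, with 302 to 348 CPM in PD-1- and 568 to 838 CPM in PD-1+ libraries. In PD-1- cells Myo1f counts were 0.026 to 0.101 of those of Myo1g, and in PD-1+ cells 0.317 to 1.00. The heavy chain of nonmuscle myosin II, Myh9, was at 476, 442, 474 and 461 CPM in PD-1- and 451, 482, 455 and 473 CPM in PD-1+ libraries (0.01 ± 0.12, adjusted p = 0.972). These were 8 values with little spread and no order by population. Its light chain genes differed from it. Myl6, the essential light chain, was 0.93 ± 0.13, and Myl12a, a regulatory light chain, was at 281, 296, 218 and 245 CPM in PD-1- and 889, 822, 545 and 484 CPM in PD-1+ libraries (1.36 ± 0.13, adjusted p = 1.6e-06). The neighbouring Myl12b, a second regulatory light chain gene, was not called (0.30 ± 0.13, adjusted p = 0.0791). Exons annotated under other gene names, Myl12b among them, cover 19.9% of the exon bases of Myl12a. The gene span of Myl12b (chr17:70973133-70990890) does not itself reach that of Myl12a (chr17:70993656-71002878). Of the 25-base windows of Myl12a transcripts, 17.8% also occur in Myl12b transcripts, so reads can be shared between both.

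The 3 genes for proteins at the membrane had the widest range. Plek (chr11:16971206-17052381, - strand), whose product pleckstrin binds phosphoinositides and reshapes cortical actin, was at 0.972, 3.41, 5.83 and 3.25 CPM in PD-1- and 127, 145, 544 and 343 CPM in PD-1+ libraries. Nearly silent libraries stood against clearly expressing ones, and the difference of 6.37 ± 0.28 (adjusted p = 1.4e-09) was the largest of the 47, a fold of 82.7. Plek is also a well-known gene of platelets and myeloid cells. The 6 platelet markers summed to 0.568 to 2.27 CPM in PD-1- and 2.39 to 3.09 CPM in PD-1+ libraries at 5 days, and to 2.91 to 5.20 and 8.79 to 9.97 CPM at 10 days. The 8 neutrophil markers summed to 1.14 to 2.59 and 2.06 to 4.77 CPM at 5 days, and to 1.30 to 1.94 and 2.81 to 5.70 CPM at 10 days. The 11 macrophage markers summed to 35.3 to 88.0 and 52.0 to 53.9 CPM at 5 days, and to 40.5 to 48.1 and 64.0 to 68.4 CPM at 10 days. Within an age, the platelet sums were thus higher in PD-1+ cells at both ages and the neutrophil and macrophage sums at 10 days, the same direction as Plek, as were the sums of dendritic cell markers given above. No platelet or neutrophil marker had enough counts for testing. Of 6 macrophage markers tested, 1 was called higher over both ages and 1 lower. The part of cells with these markers in the difference of Plek was not tested. Msn, the X-linked gene of moesin, the main membrane linker of lymphocytes, was at 2022, 1938, 2145 and 1763 CPM in PD-1- and 1673, 1835, 1448 and 1317 CPM in PD-1+ libraries. The populations overlapped, and the small difference (-0.34 ± 0.13, adjusted p = 0.0481) was lost under 15 of 18 alternatives. Its relative Ezr, the gene of ezrin, was not called (0.09 ± 0.14, adjusted p = 0.629).

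The remaining 7 members were Rac2, Cdc42, Arhgdib, Rhoh, Rhoa, Dock2 and Rac1, of which the first 3 were called higher, Rhoh lower and the other 3 not called. Rac2, the Rac GTPase of blood cells, was at 2137, 2248, 1813 and 2118 CPM in PD-1- and 3622, 3610.2, 3770.3 and 3409.8 CPM in PD-1+ libraries (0.80 ± 0.12, adjusted p = 0.000117), without overlap. Cdc42, which acts on WASP, was 0.91 ± 0.12, with 994 to 1057 CPM in PD-1- and 1649.5 to 2241 CPM in PD-1+ libraries. Arhgdib was 0.53 ± 0.13. Rhoh, an atypical GTPase needed for T cell receptor signalling (chr5:65861213-65896700, + strand), was at 311, 311, 385 and 337 CPM in PD-1- and 152, 161, 269 and 258 CPM in PD-1+ libraries (-0.72 ± 0.14, adjusted p = 0.00077). Its PD-1+ libraries were all below the PD-1- libraries, with the 5-day pair lowest. Rhoa, a driver of contraction, and Dock2, an activator of Rac in lymphocytes, were not called (0.15 ± 0.13 and -0.30 ± 0.15). Rac1 was at 268, 78.9, 70.3 and 230.3 CPM in PD-1- and 391, 331, 44.2 and 263 CPM in PD-1+ libraries, with a wide spread within pairs of the same age (0.56 ± 0.77, adjusted p = 0.615). Exons of Daglb on the opposite strand cover 51.4% of the exon bases of Rac1, and whether counting used strand is not given in the sources used here.

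Ratios of related genes within a library need no scaling and show where members of a family differed unequally. Of 10 pairs, 6 had ratios that did not overlap between populations, but no share over other gene pairs was taken for comparison. Actb counts were 33.0 to 40.8 times those of Actg1 in PD-1- and 20.7 to 24.9 times in PD-1+ libraries. The ratio of Actn1 to Actn4 was 0.415 to 0.476 in PD-1- and 0.0120 to 0.0333 in PD-1+ libraries, that of Myl12a to Myl12b 1.21 to 1.58 and 2.25 to 3.82, and that of Ezr to Msn 0.253 to 0.322 and 0.359 to 0.426. Those of Tmsb4x to Tmsb10 and of Myo1f to Myo1g are given above. The ratios of Cfl1 to Dstn, Rac1 to Rac2, Capza1 to Capza2 and Coro1a to Coro1b overlapped. Within PD-1+ cells, Cfl1 to Dstn was 18 to 18.3 at 5 days and 10.7 to 11.3 at 10 days. No test was made of these ratios.

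**Figure D3:**
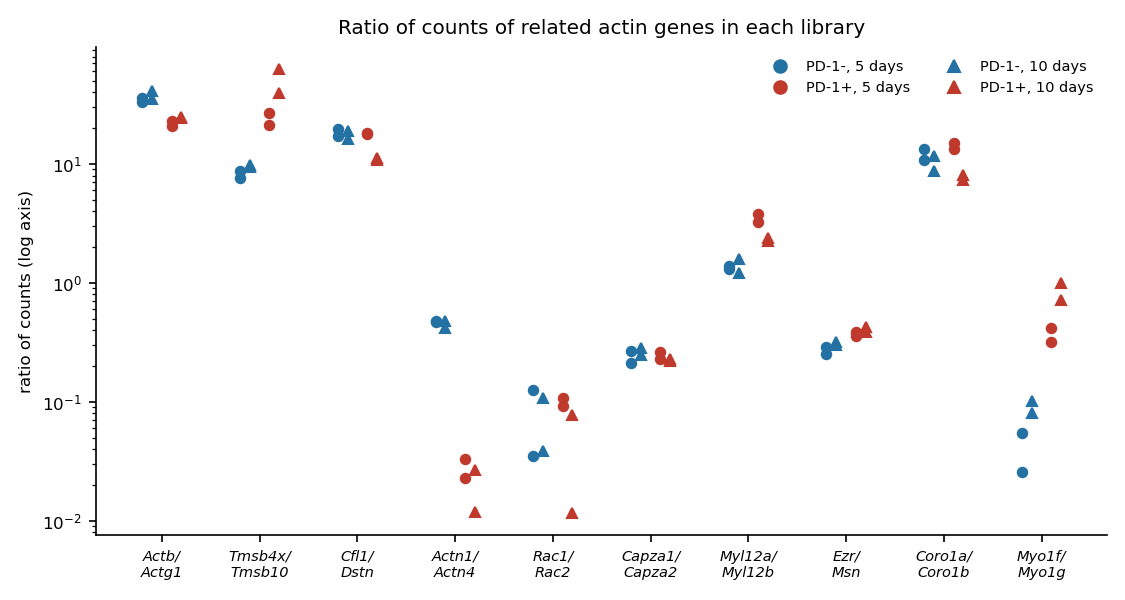
Ratio of the counts of 10 pairs of related genes in each library (y axis, log scale), PD-1- in blue, PD-1+ in red, circles at 5 days and triangles at 10 days. The ratio of Actn1 to Actn4 lies below 0.05 in every PD-1+ library and above 0.4 in every PD-1- library, and that of Tmsb4x to Tmsb10 is highest in the 10-day PD-1+ pair.

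Per kilobase of exon, mean levels in PD-1- cells ran from 5187 CPM per kilobase for Actb through 1815 for Tmsb4x, 1317 for Coro1a, 913 for Arhgdib and 670.0 for Rac2 to 10.5 for Wipf1, 4.29 for Myo1f and 0.750 for Plek. In PD-1+ cells Actb was at 16460.0, Tmsb4x at 5129, Coro1a at 1879, Arhgdib at 1344 and Pfn1 at 1324 CPM per kilobase. Actn1 was lowest there, at 2.08, while Myo1f reached 78.4 and Plek 64.6 CPM per kilobase. Actb, Tmsb4x, Coro1a and Arhgdib thus came first in this order in both populations, while Plek and Myo1f were last in PD-1- cells and Actn1 in PD-1+ cells.

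The difference between the populations was present at each age and larger at 5 days for part of the genes. At 5 days, 33 members were called higher and 3 lower (Actn1, Rhoh and Gsn), against 17.6% and 16.7% of all tested genes (34.3% in either direction). At 10 days, 29 were higher and 4 lower (Actn1, Rhoh, Msn and Tmsb10), against 16.4% and 12.9% of all genes (29.3% in either direction). The members' median was 0.98 at 5 days and 0.72 at 10 days, with -0.03 and 0.01 over all genes. In 28 genes the higher level was called at both ages. Of these, Arhgdib was called at 10 days at an adjusted p of 0.0488 and lost that call under 15 of 19 alternatives, Coro1b lost its 5-day call under 6 of 19, and Actn4 its 10-day call under 5 of 19. Actr2, Capza1, Coro1a, Flna and Was were called higher at 5 days and missed the threshold at 10 days, and Wipf1 was called higher at 10 days and missed it at 5 days. The 5-day call of Was was lost under 8 of 19 alternatives. At neither age were Arpc3, Dock2, Ezr, Myh9, Myl12b, Rac1, Rhoa and Twf2 called. With the replicate number as a block, however, Arpc3 was called higher at both ages, Dock2 lower at 5 days and Myl12b higher at 10 days. Calls were gained under 7 of 19 alternatives for Dock2 at 5 days, and for Arpc3 under 4 of 19 at 5 days and 6 of 19 at 10 days. The 5-day call of Gsn was lost under 6 of 19 alternatives and the 10-day call of Rhoh under 4 of 19.

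The difference between the ages was itself tested as an interaction. It was called in 8 of 47 members, all with a more negative PD-1 effect at 10 days, while 1.20% of all genes were called in the positive and 0.923% in the negative direction (2.12% in either). For Vim the PD-1 effect was 2.41 ± 0.13 at 5 days and 1.35 ± 0.13 at 10 days, a difference of -1.06 ± 0.18 (adjusted p = 0.00494). For Tmsb10 it was 0.21 ± 0.18 and -1.32 ± 0.19, a difference of -1.53 ± 0.27 (adjusted p = 0.00685). Lcp1, Flna and Cfl1 differed by -0.88 ± 0.20, -0.88 ± 0.19 and -0.81 ± 0.18. Actg1, Tmsb4x and Actb differed by -0.74 ± 0.17, -0.74 ± 0.19 and -0.72 ± 0.15. For 7 of the 8, the PD-1+ population was higher at 5 days and the estimate was smaller, or near 0 for Flna, at 10 days, and only Tmsb10 changed from no call to lower. Of the 39 members without a called interaction, 9 had a positive estimate. The count rests on single libraries: leaving out 1 library left 1 to 4 members called, the fewest without 5-day PD-1+ replicate 2, and leaving out both male libraries left 1 called. Tmsb10 was called in each of 18 alternatives, and Vim in all but 2, the fit without 5-day PD-1+ replicate 2 and the fit without both male libraries.

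**Figure D4:**
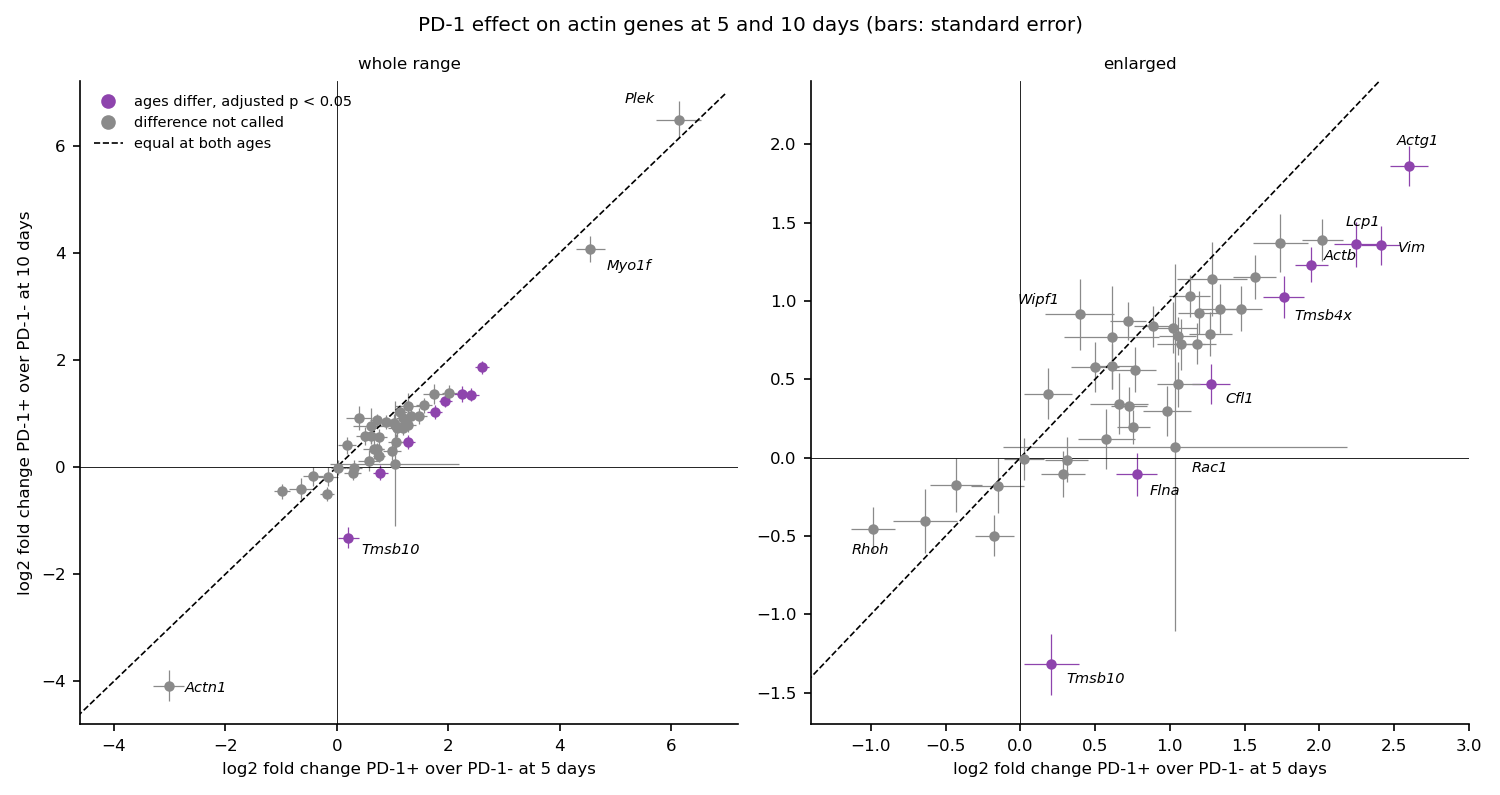
Log2 fold change in PD-1+ over PD-1- cells at 5 days (x axis) and at 10 days (y axis) for the 47 genes, with standard errors, over the whole range (left) and enlarged (right). Purple points, the 8 genes with a called interaction, all lie below the dashed line of equal effects, and Tmsb10 lies at 0.21 and -1.32.

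With age, 22 of the actin genes differed within PD-1+ cells, mostly toward lower levels at 10 days. There, 4 members were called higher at 10 than at 5 days and 18 lower, against 7.39% and 6.98% of all genes (14.4% in either direction), and the members' median was -0.33 against 0.05 over all genes. The largest was Tmsb10 at -2.27 ± 0.20 (adjusted p = 2.71e-06), from 396 and 432 CPM at 5 days to 70.9 and 101 CPM at 10 days. Vim went from 4334 and 3964 to 1419.6 and 1480.5 CPM (-1.52 ± 0.13, adjusted p = 1.52e-06). Actb, Actg1, Pfn1, Tmsb4x and Cfl1 were lower by estimates of -0.98 ± 0.11, -1.15 ± 0.12, -1.16 ± 0.13, -1.23 ± 0.13 and -1.05 ± 0.13. Thus 5 of the 6 genes for actin and its monomer binders were lower at 10 days, and so were 3 of the 5 genes for cross-linkers and vimentin. Of the 9 Arp2/3 genes, Actr2 and Actr3 were called lower, and the call of Actr3 (adjusted p = 0.0462) was lost under 12 of 18 alternatives. The 4 genes that were higher at 10 days were Plek, Myo1f, Rhoh and Gsn. Plek went from 127 and 145 to 544 and 343 CPM (1.71 ± 0.25, adjusted p = 0.000728), Rhoh from 152 and 161 to 269 and 258 CPM (0.75 ± 0.15), Myo1f from 306 and 265 to 578 and 410.1 CPM (0.79 ± 0.20) and Gsn from 66.9 and 45.4 to 97.6 and 89.6 CPM (0.74 ± 0.21). Without both male libraries, which leaves a single 5-day PD-1+ library, the calls of Myo1f, Gsn, Actr2, Actr3, Myo1g and Wdr1 were lost. Over all 18 alternatives, the call of Myo1g was lost under 8, those of Actr2, Wdr1 and Gsn under 5 each and that of Myo1f under 4. Scaling by library totals alone shifted the median of all genes in this comparison by 0.19.

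In PD-1- cells no member was called with age in the main edgeR fit. Of all genes, 0.270% were called in either direction there (0.148% higher and 0.122% lower). At an unadjusted p below 0.05 there were 15 members, 4 higher and 11 lower at 10 days, against 1219 of all 11490 tested genes in either direction. DESeq2 called 1 member, Myo1f, higher and 0 lower. Over all alternatives, edgeR fits among them, Myo1f gained a call under 6 of 18. The edgeR fit without a low-count filter also called Pfn1, Tmsb10 and Tmsb4x lower. The smallest adjusted p was 0.0838, of Myo1f, which was at 9.07 and 16.5 CPM at 5 days and 27.2 and 32.5 CPM at 10 days (1.28 ± 0.29). The 5 genes for actin, profilin and the thymosins had estimates from -0.74 ± 0.19 for Tmsb10 to -0.27 ± 0.11 for Actb. In each of these 5, both 10-day libraries lay below both 5-day libraries. Among all members, 18 had this order, these 5 included, and 8 had the opposite order, Cap1 included. The share of all tested genes with either order was not taken for comparison, so the order does not set these 5 apart.

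**Figure D5:**
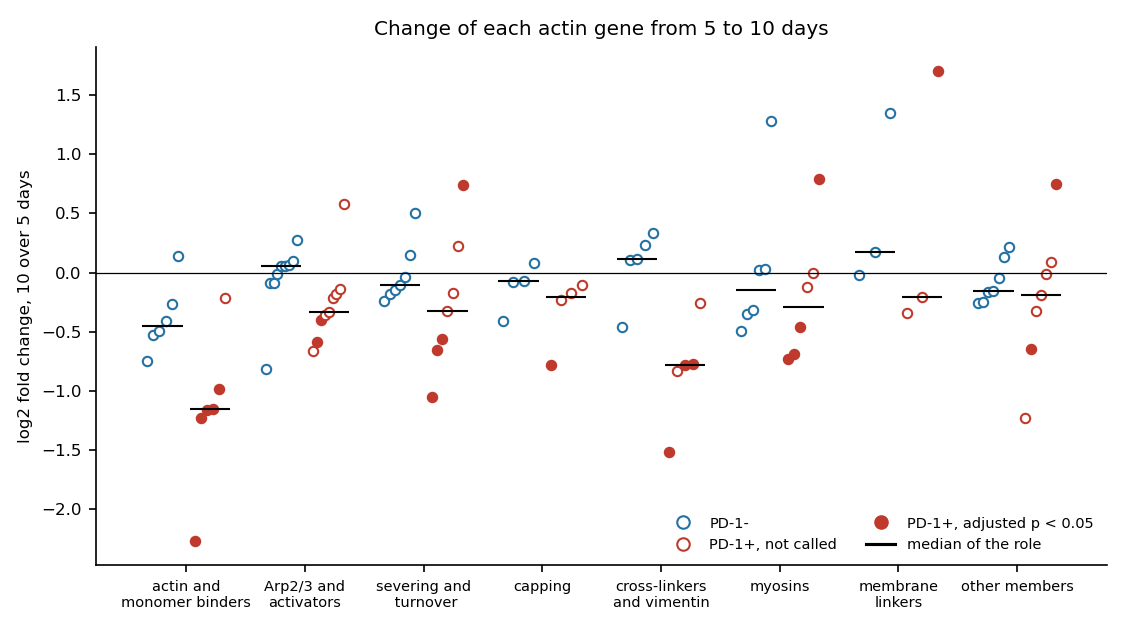
Log2 fold change from 5 to 10 days of each gene in PD-1- cells (blue) and in PD-1+ cells (red; filled, adjusted p below 0.05), by role, with a bar at each median. Red points of the actin and monomer binders lie around -1.16, below the blue ones around -0.45, and filled red points above 0 are the 4 genes that were higher at 10 days.

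Other genes of the same pathways were taken from 12 lists of 140 genes that are not among the 47. Of 122 tested, 44 were higher in PD-1+ cells over both ages, 25 were lower and 53 were not called, with a median of 0.13. Of all tested genes 21.9% were called higher and 19.6% lower, and the lower calls on these lists are near that share. Among 11 tropomyosins and cross-linkers, 6 were higher and 3 lower, led upward by Tpm4, a tropomyosin that stabilises filaments (1.80 ± 0.15, with 199.7 to 241 CPM in PD-1- and 599.5 to 1009 CPM in PD-1+ libraries), and downward by Cd2ap, an adaptor of the T cell contact (-2.08 ± 0.26), and Sptbn1, a spectrin (-1.25 ± 0.14). Among 15 genes of filament turnover, 4 were higher and 2 lower, with the higher calls near the share of all tested genes. Ssh2, a phosphatase that activates cofilin, was at 551 to 575 CPM in PD-1- and 79.4 to 180.0 CPM in PD-1+ libraries (-2.18 ± 0.18), and Coro2a, a coronin, was higher (3.98 ± 0.34, with 1.30 to 3.56 CPM in PD-1- and 27.7 to 48.8 CPM in PD-1+ libraries).

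The class I myosins Myo1e and Myo1c were higher (5.05 ± 0.75 and 2.35 ± 0.29), as were 4 of 9 myosin genes on that list with 0 lower. Myo1e was at 0.324, 5.68, 0 and 6.50 CPM in PD-1- and 47.4, 57.8, 109 and 127 CPM in PD-1+ libraries. Of 14 further Arp2/3 subunits and activators, 3 were higher and 0 lower, a share of higher calls near the 21.9% of all tested genes, with a list median of -0.01. Among the 3 were Cyfip1, a subunit of the WAVE complex (2.10 ± 0.56), and Hcls1, the cortactin of blood cells (0.88 ± 0.14). Cyfip1 was at 25.7 and 18.1 CPM in 5-day and 88.3 and 71.7 CPM in 10-day PD-1+ libraries, and its PD-1 effect was more positive at 10 days (2.86 ± 0.50, adjusted p = 0.00622), the opposite direction to the 8 members above. Tagln2, a transgelin, had a PD-1 effect more negative at 10 days (-1.18 ± 0.19, adjusted p = 0.00302). Cyfip1 and Tagln2 were the only 2 of the 122 with a called interaction, near the 2.12% of all tested genes called in either direction.

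Of 10 links to integrins 5 were higher, led by Zyx, the gene of zyxin at adhesions (1.61 ± 0.15), and 2 lower. Of 11 formins and Ena/VASP genes, 4 were higher and 2 lower, with Evl, an elongation factor at barbed ends, at -1.84 ± 0.22. Among all tested genes 21.9% were called higher and 19.6% lower, and the lower calls on both lists are near that share.

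The reads were short, and transcripts of several members share sequence with other genes. Of the distinct 25-base windows of each gene's transcripts, 52.1% for Rac1, 41.3% for Actg1, 37.1% for Actr3, 33.1% for Arpc1b, 32.8% for Tmsb10, 30.8% for Actb and 24.6% for Cfl1 also occur in transcripts of other genes, and 0 for Tmsb4x, Gsn and Twf2. The treatment of reads that match several places is not given in the sources used here. Counts of the genes with shared windows may include or lack such reads.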

How the data were processed

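The authors deposited raw counts, 1 row per gene symbol and 1 column per library (8 in all). The submitters' processing notes name STAR 2.5.4, featureCounts and mm10. For the annotation, strand and multi-mapping reads, the settings were not given in the sources used here. Per the labels' protocols, polyadenylated RNA was amplified as cDNA and tagmented. All columns matched a sample by title, none was left out, and no molecular identifiers are mentioned. The members, roles and gene lists were chosen with earlier results of these data known.

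Counts were tested as deposited with edgeR 4.0.16 in R 4.3.3: filterByExpr given the 4 groups (11490 of 52997 genes), TMM, robust quasi-likelihood fits and Benjamini-Hochberg adjustment over all tested genes, calls at 0.05. The effect over both ages came from a model with additive terms for age and PD-1, and a model of 4 groups gave effects at each age, with age and their interaction. Each standard error is the size of the log2 fold change over the root of its F statistic. The procedure was tested on simulated data. The share of Actb was compared by an exact permutation test. Alternatives were upper-quartile, RLE and total-count scaling, DESeq2 1.42.0, no or a stricter low-count filter (10 CPM in 2 libraries), non-robust fits, a replicate block, smaller fits and leaving out libraries, and, chosen after seeing the data, Actb left out of scaling. Coordinates and exon lengths are from GENCODE M21.

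Genes given in every library were the 3 highest, the 6 largest rises and falls among called members, up to 6 members called in each age comparison and in the interaction, and pairs of relatives. Other genes are given by range, and Srf, Mkl1, Arpc3, Rac1, Rac2, Myh9, Flna, Cyfip1 and Tagln2 were described further after their values were seen. Some of the 12 lists of other pathway genes are not reported here, and among these is the only list with more lower than higher calls.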

Additional observations from a re-analysis of the deposited data

Results flagged for a closer look

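The PD-1 effect differed between 5 and 10 days, by a test of the interaction in edgeR, for 8 of the 47 genes, and each was more negative at 10 days. On the log2 scale the difference was -0.72 ± 0.15 for Actb (adjusted p = 0.0239), -0.74 ± 0.17 for Actg1 (adjusted p = 0.0373) and -0.74 ± 0.19 for Tmsb4x (adjusted p = 0.0498). For Tmsb10, the only one with no higher call at 5 days, it was -1.53 ± 0.27 (adjusted p = 0.00685). For Cfl1 it was -0.81 ± 0.18 (adjusted p = 0.0285), and for Flna -0.88 ± 0.19 (adjusted p = 0.0265). For Lcp1 it was -0.88 ± 0.20 (adjusted p = 0.0314) and for Vim -1.06 ± 0.18 (adjusted p = 0.00494). The sums of proliferation markers, given above, also differ most from PD-1- cells in the 5-day PD-1+ libraries, and their part in these differences was not tested.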

How the results depend on the processing

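No member changed direction of a call under any alternative that was run. Scaling by library totals alone shifted the median of all genes by -0.156 in the PD-1 effect over both ages (1928 higher and 2804 lower against 2512 and 2249), by -0.224 at 5 days (1442 and 2634 against 2021 and 1915), by 0.19 with age in PD-1+ cells (1393 and 449 against 849 and 802) and by 0.132 in the interaction (228 and 61 against 138 and 106). With it, 5 members were lower at 5 days and 3 had a called interaction. Upper-quartile factors gave 2194 higher and 2602 lower genes over both ages. The cause was not tested.

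DESeq2 called 69 genes with age in PD-1- cells against 31, 1 of them a member, higher. Without a low-count filter there were 180, with 1 member higher and 3 lower, and 469 genes in the interaction against 244. The non-robust fit gave 19 genes with age in PD-1- cells, and 123 genes and 3 members in the interaction. Without both male libraries, 2 members were lower over both ages, 2426 genes were called at 5 days against 3936, 72 genes with 1 member higher with age in PD-1- cells, 943 genes against 1651 with 2 members higher with age in PD-1+ cells, and 118 genes with 1 member in the interaction.

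Leaving out each library in turn gave, over both ages, 31 to 34 members higher, 2 to 3 lower and 3971 to 4374 genes, at 5 days 30 to 33, 2 to 3 and 2298 to 3936 (lowest without 5-day PD-1+ replicate 2), and at 10 days 22 to 29, 2 to 4 and 2203 to 3485 (lowest without 10-day PD-1- replicate 1). With age in PD-1- cells it gave 0 to 1 member higher, 0 to 1 lower and 5 to 83 genes, and in PD-1+ cells 2 to 4, 13 to 19 and 481 to 1804. The interaction had 1 to 4 members and 57 to 261 genes, the fewest without 5-day PD-1+ replicate 2. The Actb share difference was 2.19 to 3.0 points.

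Same-numbered libraries deviated together with a correlation of 0.0938 at 5 days and 0.114 at 10 days. What a number stands for is not given in the labels, and at 5 days both libraries numbered 3 were male and both numbered 2 female, so whether the numbers mark shared animals was not settled. With the replicate block 33 members were higher and 3 lower over both ages, 34 and 4 at 5 days, 31 and 4 at 10 days, and 8 had a called interaction, with 483 genes in all.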
